A study of Mus musculus with 46 samples.

Results

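The 36 genes described here are those of the unfolded protein response and the chaperones of the endoplasmic reticulum (ER), chosen by name from a list and read in liver RNA-seq, H3K27ac ChIP-seq, Hnf4α and C/EBPα ChIP-seq and promoter capture Hi-C (PCHi-C). All 36 have a row among the 25494 rows of the RNA count table, and all 36 were among the 13494 rows with enough counts to be tested. The animals were male C57BL/6 mice that arrived at 5 weeks of age and were then fed for 20 weeks either the diet labelled high fat diet, a lipid-rich diet (LD) with 60% of its energy from fat, 20% from carbohydrate and 20% from protein, or the diet labelled low fat diet, a carbohydrate-rich diet (CD) with 10%, 70% and 20%. Before the diets, the mice were acclimated on normal chow. The paper reports that the LD mice became markedly obese, with liver histology that it reads as developing fatty liver disease. The diets differ in fat, carbohydrate and energy content at once, so the effects of these and of obesity cannot be told apart. RNA was sequenced from 5 mice per diet, H3K27ac was mapped in 3 livers per diet and each of the 2 transcription factors in 2 per diet, and the PCHi-C contacts come from 2 libraries per diet that the authors pooled.

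Proteins made for secretion are threaded into the ER through the Sec61 translocon and are folded there by chaperones of the Hsp70 and Hsp90 families, by the lectins calnexin and calreticulin and by protein disulfide isomerases, and those that do not fold are sent back to the cytosol and degraded (ER-associated degradation, ERAD). When unfolded protein builds up, the sensors IRE1α (Ern1), PERK (Eif2ak3) and ATF6 are activated. IRE1α splices the Xbp1 transcript into the form that encodes an active transcription factor, ATF6 is cut to release its own factor, and PERK phosphorylates eIF2α, which lowers translation in general and raises that of ATF4. The hepatocyte secretes most plasma proteins and handles a large flow of lipid through the same membrane, which is why the pathway is much studied in fatty liver. Gene counts show the amount of each transcript. They show neither the splicing of Xbp1, nor the cleavage of ATF6, nor any phosphorylation, so that the activity of the 3 sensors was not measured.

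The promoters of many of these genes are known for the ER stress response element (ERSE), which ATF6 and XBP1 bind with NF-Y. RefSeq promoter windows of 300 bases on build GRCm38.p6, running from 250 bases before to 50 bases after the transcription start, were at hand for 30 of the 36 genes, those for Hyou1, Manf, Derl1, Atf6, Ppp1r15b and Sec61a1 being the exceptions. The windows were searched on both strands for ERSE (CCAAT, any 9 bases, CCACG), ERSE-II (ATTGG, any 1 base, CCACG), the UPRE core (TGACGTGG or TGACGTGA) and the CARE element of ATF4 with a C/EBP partner (TGATG, 1 base, AA and any base). An ERSE match stood in 9 of the 30 members (30%) against 39 of all 32851 promoters in the table (0.119%), and an ERSE-II match in 2 of 30 (6.67%) against 12 of 32851 (0.0365%). The 10 ERSE matches are printed because ERSE had the largest difference in share between the members and the table. Each reads from 5′ to 3′ on the strand of the motif, with the fixed ends of the motif in capitals and the spacer in lower case.
Hspa5: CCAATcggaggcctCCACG
Hsp90b1, distal: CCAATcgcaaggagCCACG
Hsp90b1, proximal: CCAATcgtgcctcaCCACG
Dnajc3: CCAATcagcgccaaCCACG
Calr: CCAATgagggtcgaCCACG
Canx: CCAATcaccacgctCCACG
Creld2: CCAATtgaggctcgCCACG
Pdia6: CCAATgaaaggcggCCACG
Derl3: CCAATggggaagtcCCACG
Syvn1: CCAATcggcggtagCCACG

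Hsp90b1 alone among the members held more than 1 ERSE match in its window. The ERSE-II matches were in Dnajb11 and Herpud1.
Dnajb11, ERSE-II: ATTGGcCCACG
Herpud1, ERSE-II: ATTGGgCCACG
The UPRE core TGACGTGA was found in Hspa5 only, 1 of 30 members against 145 of 32851 promoters (0.441%), and TGACGTGG in none of the 30 against 222 of 32851 (0.676%). CARE was found in Herpud1 and Chac1, 2 of 30 members (6.67%) against 1299 of 32851 promoters (3.95%), shares that lie close together. A match is a run of letters and not a measured site.

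**Figure D1:**
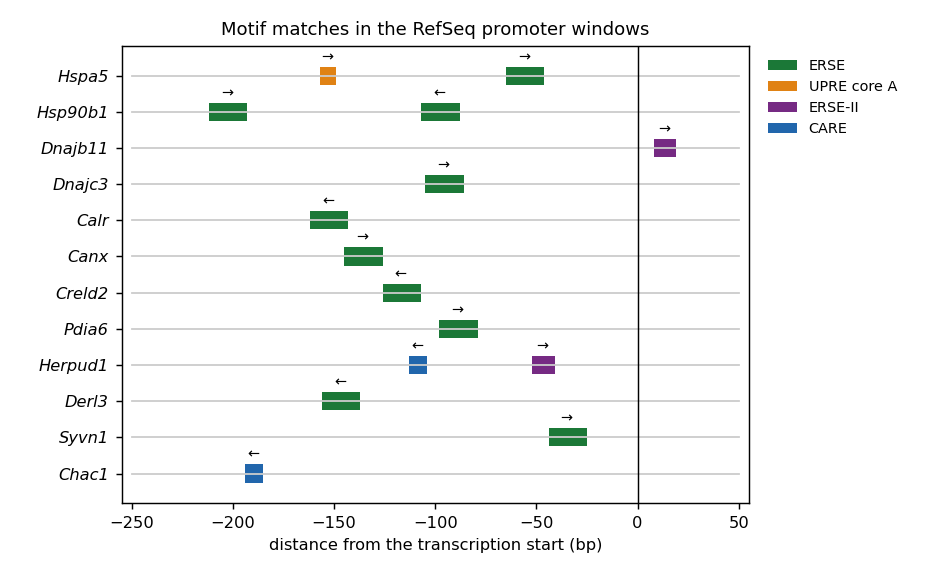
Position of each motif match relative to the transcription start (bp, x axis) in the 12 members with a match (rows); coloured bars are matches, arrows give the strand and the grey lines span the 300-base window. All ERSE matches lie before the start, between 212 and 26 bases upstream, and the ERSE-II match of Dnajb11 lies after it.

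The 250 bases before the start of Hspa5 and Herpud1 are shown, since each holds matches to more than 1 of the motifs, in lower case with the matches in capitals. Hspa5 (GRCm38.p6 chr2:34771840-34772089, plus strand) has the UPRE core 157 to 150 bases and the ERSE 65 to 47 bases before the start, and Herpud1 (GRCm38.p6 chr8:94386179-94386428, plus strand) has CARE, on the opposite strand, 113 to 105 bases and ERSE-II 52 to 42 bases before it.
Hspa5: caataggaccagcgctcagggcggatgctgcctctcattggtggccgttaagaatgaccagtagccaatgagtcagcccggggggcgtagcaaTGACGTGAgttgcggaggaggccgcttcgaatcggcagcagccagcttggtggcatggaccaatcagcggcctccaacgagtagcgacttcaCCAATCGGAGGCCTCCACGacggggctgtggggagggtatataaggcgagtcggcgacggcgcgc
Herpud1: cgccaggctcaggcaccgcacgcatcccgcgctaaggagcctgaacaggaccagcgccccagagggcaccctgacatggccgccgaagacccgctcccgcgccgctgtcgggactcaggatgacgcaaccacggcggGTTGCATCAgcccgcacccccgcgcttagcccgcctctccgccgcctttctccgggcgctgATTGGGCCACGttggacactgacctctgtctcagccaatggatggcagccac
Of the 9 members with an ERSE match, 3 (Hspa5, Creld2 and Syvn1) were called lower on LD in the RNA-seq comparison that follows, and of the 21 members with a window but no ERSE match, 6 were. Hyou1, Manf, Ppp1r15b and Sec61a1 were also called lower but had no window, so they stand outside this split. Over all rows tested in the RNA-seq, 11.1% were called lower.

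The comparison of the diets asks whether transcripts of this pathway stood at a different level in the livers of LD mice. Of the 36 members, 13 fell on LD and none rose. The chaperones among them were the ER Hsp70 Hspa5, its partners Hyou1 and Manf, and Creld2. The degradation genes were Edem1, Edem2 and Syvn1. The others were the sensor Ern1, the transcription factors Xbp1 and Atf4, the eIF2α phosphatase subunit Ppp1r15b, and Sec61a1 and Wfs1 of the ER membrane. The folds were modest, from 1.21 for Edem2 to 1.75 for Ern1. A gene was called when its Benjamini-Hochberg adjusted p-value from edgeR's quasi-likelihood test, adjusted over all 13494 rows, was under 0.05 and its fold change above 1.2. Over all rows tested, 13.8% were called higher on LD and 11.1% were called lower, so that the 36.1% of members called lower stands beside a background of 11.1%. The members were chosen with earlier results of these data known, and how far that choice shapes the contrast was not tested. When the fold change itself was tested against 1.2 in edgeR, 2 members (5.56%), Manf and Ern1, were called lower, beside 459 of all rows (3.4%). All 5 LD mice lay below all 5 CD mice for 9 members (25%), beside 8.35% of all rows. They lay above for none, beside 10.2%. The median log2 fold change (LD over CD) of the members was -0.19, that of all rows tested was -0.00187, and 30 of the 36 fitted values were below 0. None was called higher in the main edgeR fit, where P4hb and Eif2ak3 had fitted values above 0 with an unadjusted p under 0.05. Eif2ak3 was called higher in DESeq2 and in edgeR with the replicate number as a block, and P4hb by limma on log2 TPM. By limma on log2 TPM, where the median of all genes was above 0, the called members kept their direction. With a pseudocount of 1, 8 of 36 members were called lower, beside 740 of all 13494 rows.

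**Figure D2:**
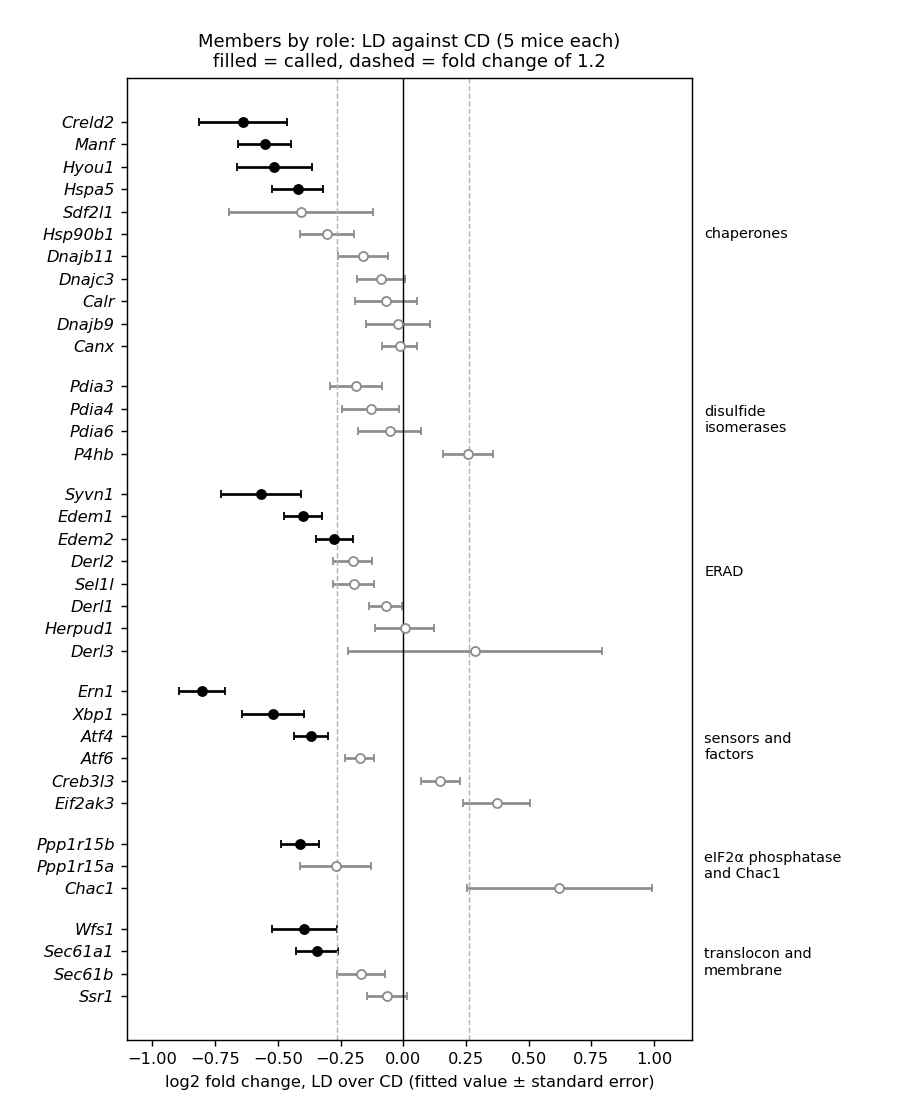
Fitted log2 fold change of LD over CD for the 36 members (x axis, bars are the standard error, 5 mice per diet), grouped by role; filled points were called and dashed lines mark a fold change of 1.2. All 13 filled points lie left of 0, from Ern1 at -0.80 to Edem2 at -0.28.

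Total counts per library ranged from 31707963 to 39012699. Hepatocyte genes were abundant in every library. Alb did not pass the test (log2 fold change -0.07, edgeR adjusted p = 0.614), while Cps1 and Serpina1c, 2 of the 5 hepatocyte markers tested, fell on LD. The summed level of the list ranged over 78120 to 95360 CPM on LD and 84540 to 100300 on CD. Markers of other cells moved with diet as well. Of 11 macrophage markers, 4 rose on LD (summed level 507 to 1296 CPM on LD, 383 to 764 CPM on CD), as did 2 of 7 stellate markers (487 to 690.3 CPM and 394 to 511 CPM). So did 1 of 5 cholangiocyte markers, Spp1 (45.9 to 121 CPM and 18.8 to 32.1 CPM). Of the plasma and B cell markers 1 of 6 rose (6.15 to 12.7 CPM and 5.92 to 8.07 CPM), and the plasma cell gene Tnfrsf17 had 2 counts in CD replicate 2 and 0 in every other mouse. Neutrophil markers stood at 74.8 CPM in LD replicate 2 and at 3.97 to 5.46 in the other LD mice, against 1.91 to 3.24 on CD. Endothelial Lyve1, 1 of 6 markers tested, rose (log2 fold change 0.90, edgeR adjusted p = 0.0145; summed level 398 to 557 CPM on LD and 440.3 to 547 CPM on CD). Of 4 T cell markers, Cd8a rose and Cd4 fell (log2 fold changes 2.04 and -1.26, edgeR adjusted p = 0.0237 and 0.00335), at a summed level of 1.06 to 4.44 CPM on LD and 2.21 to 2.77 CPM on CD. Of the adipocyte list only Car3, which hepatocytes also express, had enough counts, and it was not called. Of the markers of the pancreas, another secretory tissue, Cela1 was the only one tested, and it fell on LD as the called members did (444 to 942 counts on LD and 778 to 1176 on CD, log2 fold change -0.66, edgeR adjusted p = 0.0198). Pnlip had no count, and Ctrb1, Cpa1 and Prss2 had at most 2 in any library. The part of these cell types in the results that follow was not tested, and in whole liver fewer cells of a type cannot be told apart from less RNA per cell. Without LD replicate 2, 11 members were called lower and 1, P4hb, was called higher.

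The chaperones of the lumen bind unfolded chains directly, and 4 of the 11 fell on LD while none rose. Hspa5 encodes BiP, the ER Hsp70 that also holds the 3 sensors inactive, and it is the transcript most used as a readout of the response. It stood at 678, 821, 635, 791 and 689 CPM (counts scaled to library size with TMM factors, replicates 1 to 5) on LD and at 1032, 1037, 1096, 829 and 844 CPM on CD. Every LD mouse lay below every CD mouse, by a narrow gap between LD replicate 2 and CD replicate 4. The mean was 723 ± 79.2 CPM on LD (SD, n = 5) and 968 ± 122 on CD, a level 1.34-fold lower (log2 fold change -0.42 ± 0.10, edgeR adjusted p = 0.00769). Here and below, the ± of a log2 fold change is an approximate standard error, worked back from the test statistic.

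Manf, a small secreted protein that binds BiP and stabilises its complexes with clients, had the smallest adjusted p of the chaperones. It was measured at 51, 64.5, 51.2, 71.9 and 61.8 CPM on LD and at 100.4, 84.7, 95.6, 83.7 and 76.4 CPM on CD, and the highest LD mouse lay under the lowest CD mouse. This was a 1.47-fold lower level on LD (log2 fold change -0.55 ± 0.10, edgeR adjusted p = 0.00184), and the call held under every alternative that was run. Creld2, an ER-resident isomerase-like protein, stood at 17.8, 20.2, 17.5, 21.7 and 16.4 CPM on LD and at 39.4, 36, 27.2, 23.8 and 19.4 CPM on CD. The LD mice were close together and the CD mice spread widely, with CD replicate 5 inside the LD range (log2 fold change -0.64 ± 0.18, edgeR adjusted p = 0.0184). Hyou1, the large Hsp70-like nucleotide exchange factor of BiP, was at 159, 117, 162, 160.3 and 140.2 CPM on LD and 232, 253, 239.6, 189 and 141 on CD. CD replicate 5 again fell among the LD mice (log2 fold change -0.51 ± 0.15, edgeR adjusted p = 0.0228). The call was lost on log2 TPM and when LD replicate 5 or any 1 of CD replicates 1 to 3 was left out, with edgeR adjusted p up to 0.0548.

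Among the 7 chaperones that were not called, Hsp90b1 and Sdf2l1 had the largest fitted values. Hsp90b1, the ER Hsp90 (GRP94), was at 797, 660.0, 726, 634 and 719.7 CPM on LD and 933, 1051, 927, 751 and 704 CPM on CD, so that CD replicates 4 and 5 overlapped the LD mice (log2 fold change -0.30 ± 0.11, edgeR adjusted p = 0.0515). It was called lower in DESeq2 and when LD replicate 1, CD replicate 4 or CD replicate 5 was left out. Sdf2l1, a partner of the BiP cochaperone Dnajb11, stood at 22.2, 18, 24.3, 17.3 and 20.7 CPM on LD and at 44.4, 37.5, 20.1, 17.1 and 16.9 CPM on CD. CD replicates 1 and 2 stood above all other mice, and the other 3 CD mice lay between 16.9 and 20.1 CPM (log2 fold change -0.41 ± 0.29, edgeR adjusted p = 0.328). The J-domain cochaperones of BiP, Dnajb9, Dnajb11 and Dnajc3, had log2 fold changes of -0.02, -0.16 and -0.09. Calr and Canx, the lectin chaperones calreticulin and calnexin, were at -0.07 and -0.01, and the standard error of 0.07 for Canx is among the smallest of the list. Canx ranged over 508 to 541 CPM on LD and 484 to 569.9 CPM on CD. None of these 5 passed the test (edgeR adjusted p from 0.254 to 0.921).

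**Figure D3:**
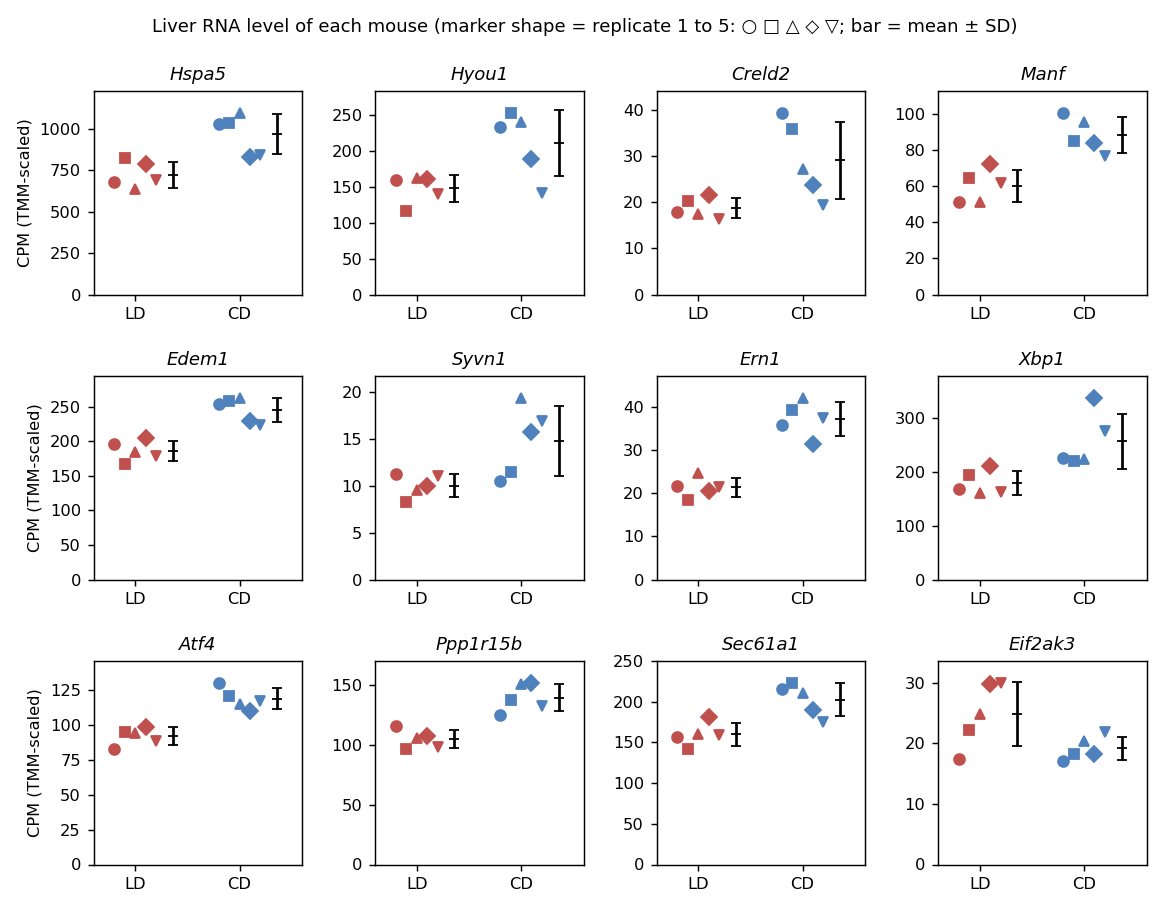
RNA level of 12 members in each mouse (CPM, TMM-scaled, y axis from 0; 5 LD mice in red, 5 CD mice in blue, marker shapes are replicates 1 to 5, black bars are mean ± SD). Hspa5, Manf, Edem1, Ern1, Xbp1, Atf4 and Ppp1r15b have all LD mice below all CD mice, while Hyou1, Creld2, Syvn1, Sec61a1 and Eif2ak3 overlap.

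The CD mice did not lie close together for several chaperones, and this is visible across the list. The median over the 36 members of each mouse's log2 CPM, taken relative to the CD mean of each gene, was -0.15, -0.28, -0.19, -0.16 and -0.20 in LD replicates 1 to 5. In CD replicates 1 to 3 it was 0.10, 0.07 and 0.08, and in CD replicates 4 and 5 it was -0.13 and -0.10. All LD mice lay below all CD mice on this median, with LD replicate 1 and CD replicate 4 nearest to each other. Not every member followed that order, since Xbp1, Ppp1r15a and Chac1 were highest among CD mice in replicate 4.

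The disulfide isomerases, which form and rearrange disulfide bonds, held the most abundant transcript of the list per unit length, P4hb, and none was called. P4hb (PDI) had mean deposited TPM of 1143 on CD and 1445 on LD, the highest of the 36 members on either diet. Its CPM were 1851, 1620.3, 2018, 2287 and 1906 on LD and 1803, 1682, 1687, 1372 and 1546 on CD, with LD replicate 2 below the upper 3 CD mice. Its fitted value was above 0 (log2 fold change 0.26 ± 0.10, edgeR adjusted p = 0.0688). It was called higher on log2 TPM and without LD replicate 2. Pdia3 (ERp57), Pdia4 (ERp72) and Pdia6 (P5) had log2 fold changes of -0.19 ± 0.10, -0.13 ± 0.11 and -0.05 ± 0.13, with edgeR adjusted p from 0.199 to 0.783. All 3 were highest in CD replicate 1, while Pdia3 and Pdia6 were lowest in CD replicate 4 and Pdia4 in LD replicate 2.

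Of the 8 ERAD genes, 3 fell and none rose in edgeR, and on log2 TPM only Edem1 was called, with either pseudocount. Edem1, which picks out glycoproteins whose mannoses have been trimmed, was at 196, 168, 184, 206 and 178 CPM on LD and 253, 258, 263, 229.9 and 224 CPM on CD. The groups did not overlap, and the level was 1.32-fold lower on LD (log2 fold change -0.40 ± 0.08, edgeR adjusted p = 0.0018). Edem2, which starts that trimming, was at 45.2, 42.7, 48, 49.5 and 45.2 CPM on LD and 65.3, 56, 51.4, 54.7 and 51.8 on CD. These groups also stood apart, but by a narrow gap and a small fold (log2 fold change -0.28 ± 0.07, edgeR adjusted p = 0.0137). The fold dropped under 1.2 when LD replicate 2 or CD replicate 1 was left out. Syvn1 (HRD1), the ubiquitin ligase at the centre of the degradation channel, is a low transcript here at 11.3, 8.23, 9.53, 9.92 and 11 CPM on LD and 10.5, 11.5, 19.4, 15.8 and 16.9 CPM on CD. CD replicates 1 and 2 lay within or just above the LD range and the other 3 CD mice well above it (log2 fold change -0.57 ± 0.16, edgeR adjusted p = 0.018).

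Its partners did not pass the test. Sel1l, the adaptor that holds HRD1 in place, had a log2 fold change of -0.20 ± 0.08 (edgeR adjusted p = 0.0883). The derlins Derl1 and Derl2, rhomboid-like parts of the channel, had -0.07 ± 0.07 and -0.20 ± 0.08 (edgeR adjusted p = 0.465 and 0.0662). Derl3, the derlin of plasma cells and pancreas, was a low transcript with 47, 22, 80, 54 and 42 counts in the LD mice and 50, 85, 42, 15 and 10 in the CD mice. Its values overlapped and its standard error of 0.50 allows no direction (log2 fold change 0.29 ± 0.50, edgeR adjusted p = 0.713). Herpud1, an ER membrane protein that assembles the ligase and a common marker of the response, was at 367, 319, 284, 332 and 232 CPM on LD and 282, 255, 347, 323 and 321 CPM on CD. The CD mice lay within the range of the LD mice (log2 fold change 0.01 ± 0.12, edgeR adjusted p = 0.977).

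The sensors and factors gave 3 of 6 calls, all lower on LD, and 4 of 6 with separated groups. Ern1 (IRE1α) had the largest change of the 36 members. It stood at 21.7, 18.5, 24.8, 20.6 and 21.4 CPM on LD and at 36, 39.5, 42.2, 31.5 and 37.5 CPM on CD, so that the highest LD mouse lay well below the lowest CD mouse. The level was 1.75-fold lower (log2 fold change -0.80 ± 0.09, edgeR adjusted p = 6.35e-05). It was called in all alternatives that were run, with an edgeR adjusted p of at most 0.000298 when any 1 mouse was left out. Xbp1, whose transcript IRE1α splices, was at 167, 194, 161, 211 and 162 CPM on LD and 226, 219.6, 224, 338 and 276 CPM on CD. The groups were separated by a narrow gap between LD replicate 4 and CD replicate 2, and CD replicates 4 and 5 were the highest of all (log2 fold change -0.52 ± 0.12, edgeR adjusted p = 0.00807). Atf4, the factor translated when eIF2α is phosphorylated, was at 82.8, 94.9, 94.1, 98.6 and 88.1 CPM on LD and 129.9, 120.3, 115, 109.6 and 117 CPM on CD. No LD mouse reached the lowest CD mouse, and the level was 1.29-fold lower (log2 fold change -0.37 ± 0.07, edgeR adjusted p = 0.00162).

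Atf6 stood at 115, 107, 119.9, 120.0 and 118 CPM on LD and at 131, 133, 129, 132 and 130.5 CPM on CD. Its groups were fully separated and its adjusted p was under 0.05, but the fold of 1.13 was below the 1.2 that a call required (log2 fold change -0.17 ± 0.06, edgeR adjusted p = 0.0336). Eif2ak3 (PERK) had the opposite sign, at 17.4, 22.3, 24.9, 29.8 and 30 CPM on LD and 17.2, 18.3, 20.4, 18.2 and 21.9 CPM on CD. LD replicate 1 was among the lowest of the 10 mice and LD replicates 4 and 5 were the highest (log2 fold change 0.37 ± 0.13, edgeR adjusted p = 0.0542). The gene was called higher in DESeq2, with the replicate number as a block, and without LD replicate 1 or CD replicate 5. Creb3l3 (CREBH), a liver factor that is cut like ATF6 and acts on lipid genes, was at 308, 269, 298, 295 and 244 CPM on LD and 251, 229, 259, 265 and 271 CPM on CD, with LD replicates 2 and 5 inside the CD range, and was not called (log2 fold change 0.15 ± 0.08, edgeR adjusted p = 0.181). Per unit length the transcripts of the 3 sensors were lower than those of the 3 factors, at mean TPM on CD of 16.9 for Ern1, 7.14 for Eif2ak3 and 31.5 for Atf6, against 205 for Xbp1, 201 for Creb3l3 and 123 for Atf4.

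Ppp1r15b (CReP) and Ppp1r15a (GADD34) direct protein phosphatase 1 to eIF2α, the former constitutively and the latter after stress. Ppp1r15b fell on LD, from 125, 138, 151, 152 and 133 CPM on CD to 116, 96.7, 106, 108 and 98.6 CPM on LD. The groups did not overlap (log2 fold change -0.41 ± 0.08, edgeR adjusted p = 0.00146). Ppp1r15a was at 7.04, 8.98, 7.7, 8.52 and 8.33 CPM on LD and 8.86, 8.22, 8.04, 13.8 and 10 CPM on CD, with CD replicate 4 above the other 9 mice (log2 fold change -0.27 ± 0.14, edgeR adjusted p = 0.177). Chac1, a glutathione-degrading enzyme induced by ATF4 and CHOP, was a low transcript at 146, 69, 63, 94 and 88 counts in the LD mice and 34, 32, 38, 105 and 74 in the CD mice. CD replicates 4 and 5 lay within the LD range (log2 fold change 0.62 ± 0.37, edgeR adjusted p = 0.237). The gene was called higher on LD only without CD replicate 4.

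Of the translocon and membrane genes, 2 of 4 fell in edgeR, against 0 on log2(TPM + 1) and 1, Sec61a1, on log2(TPM + 0.1). Sec61a1, the pore of the translocon, was at 157, 141, 161, 181 and 159 CPM on LD and 215, 223, 211, 189.8 and 175 CPM on CD, with LD replicate 4 above CD replicate 5 and no other overlap (log2 fold change -0.34 ± 0.08, edgeR adjusted p = 0.00866). Wfs1 (wolframin), a membrane protein that restrains ATF6, was a low transcript at 4.38, 5.01, 5.74, 6.19 and 4.84 CPM on LD and 5.93, 6.55, 8.57, 6.99 and 6.29 CPM on CD. It is the least firm of the 13 calls (log2 fold change -0.39 ± 0.13, edgeR adjusted p = 0.0366), which did not hold in 6 of 10 repeats without a single mouse, with edgeR adjusted p up to 0.0971. Sec61b, the β subunit of the translocon, and Ssr1, of the translocon-associated complex, were not called, with log2 fold changes of -0.17 ± 0.10 and -0.06 ± 0.08.

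The rest of the pathway was read from lists of 130 further genes, of which 123 were tested, 22 fell and 10 rose on LD, with Ero1l, which stands in 2 lists, counted once, beside the backgrounds of 11.1% and 13.8% given above. The balance of directions was another by limma on TPM, which changes the input and the test together, with 7 lower and 17 higher on log2(TPM + 1), and 7 and 19 on log2(TPM + 0.1). With RLE size factors in edgeR there were 23 lower and 10 higher. In edgeR nearly all calls in the lists of folding, degradation and translocation were lower. Of 28 other chaperones and oxidoreductases, 8 fell and 1 rose. Pdia5, another disulfide isomerase, was at 19.9, 23.9, 18.7, 16.9 and 16.8 CPM on LD and 38, 38.9, 31.5, 42.6 and 30 CPM on CD (log2 fold change -0.91 ± 0.12, edgeR adjusted p = 0.000155). Ero1lb, the oxidase that recharges PDI in secretory tissues, was at 57.1, 43.3, 54.5, 54 and 55 CPM on LD and 91.4, 98.5, 91.6, 79.6 and 72.6 CPM on CD (log2 fold change -0.72 ± 0.09, edgeR adjusted p = 0.000158). Its widely expressed paralog Ero1l had a smaller drop (log2 fold change -0.30 ± 0.09, edgeR adjusted p = 0.0207). For Pdia5 and Ero1lb no LD mouse reached a CD mouse. The gene that rose was Serpinh1 (HSP47), the collagen chaperone, at 28.5, 33.1, 30.8, 30.8 and 41 CPM on LD and 22.7, 22, 18.4, 13.3 and 17.6 CPM on CD (log2 fold change 0.80 ± 0.14, edgeR adjusted p = 0.00127). The stellate markers that rose were the collagens Col1a1 and Col3a1 (counts of 925 to 1986 on LD and 276 to 649 on CD for Col1a1).

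Of 28 other ERAD and quality control genes, 6 fell and none rose, among them Vimp (VCP-interacting selenoprotein, log2 fold change -0.46 ± 0.07, edgeR adjusted p = 0.000347), Mogs (the first glucosidase of glycan trimming, log2 fold change -0.38 ± 0.06, edgeR adjusted p = 0.00071) and Uggt1 (the folding sensor that puts glucose back, log2 fold change -0.31 ± 0.08, edgeR adjusted p = 0.00893). All 5 LD mice lay below all 5 CD mice for each of these 3. Os9, a lectin that works with Sel1l, was at 155, 143, 145, 172 and 131 CPM on LD and 157, 170.3, 160.3, 138 and 151 CPM on CD and was not called (log2 fold change -0.06 ± 0.08, edgeR adjusted p = 0.635). Of 22 other translocon and signal peptidase genes, 7 fell and none rose, with Spcs2 of the signal peptidase (log2 fold change -0.47 ± 0.07, edgeR adjusted p = 0.000247), Sec63 (log2 fold change -0.40 ± 0.07, edgeR adjusted p = 0.00137) and Tram1 (log2 fold change -0.34 ± 0.08, edgeR adjusted p = 0.00888) as the 3 with the smallest adjusted p. In these 3 too the mice of the diets did not overlap.

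Of 29 targets of ATF4 and CHOP tested, 7 rose, 2 fell and 20 were not called, with a median log2 fold change of 0.15. The shares of all rows tested that were called higher and lower were 13.8% and 11.1%. Atf3, a stress-induced factor, was at 3.82, 7.8, 8.16, 8.76 and 8.64 CPM on LD and 2.33, 1.88, 2.63, 1.59 and 1.25 CPM on CD, a level 3.83-fold higher (log2 fold change 1.94 ± 0.24, edgeR adjusted p = 0.000158). Gpt2, the mitochondrial alanine transaminase, was at 835, 725, 851, 936 and 795 CPM on LD and 545, 512, 625, 493 and 531 CPM on CD (log2 fold change 0.62 ± 0.09, edgeR adjusted p = 0.000268). Slc7a11, the cystine transporter, had 15, 25, 14, 25 and 32 counts in the LD mice and 0, 5, 2, 0 and 2 in the CD mice, so few that the fitted fold depends on the prior count (log2 fold change 3.50 ± 0.53, edgeR adjusted p = 0.000451). All LD mice lay above all CD mice for these 3 genes. Fgf21, a liver hormone, ranged widely at 3.36, 7.75, 14.5, 11.1 and 12.8 CPM on LD and 4.46, 3.42, 1.79, 4.35 and 5.27 CPM on CD, with LD replicate 1 inside the CD range (log2 fold change 1.36 ± 0.39, edgeR adjusted p = 0.0264).

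Ddit3, Trib3 and Asns of that branch were not called. Ddit3 (CHOP) was at 4.74, 5.46, 4.84, 4.15 and 4.81 CPM on LD and 4.24, 3.52, 3.77, 3.37 and 4.83 CPM on CD, and its groups overlapped (log2 fold change 0.28 ± 0.13, edgeR adjusted p = 0.119). Trib3, a pseudokinase induced by CHOP, had a fitted value below 0 (log2 fold change -0.46 ± 0.22, edgeR adjusted p = 0.139), as did Asns, the asparagine synthetase (log2 fold change -0.27 ± 0.29, edgeR adjusted p = 0.528), at 1.14, 1.08, 0.962, 1.24 and 0.671 CPM on LD and 1.43, 0.757, 0.67, 1.4 and 1.92 CPM on CD. Of the 17 other sensors, proteases and factors tested, 2 rose, the apoptosis genes Bax (log2 fold change 0.39 ± 0.08, edgeR adjusted p = 0.00344) and Bak1 (log2 fold change 0.33 ± 0.09, edgeR adjusted p = 0.0127), and none fell. Among all rows tested, 13.8% were called higher and 11.1% lower, and 2 of 17 is close to the former share. Many genes in these lists are known to have other inputs besides ER stress.

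**Figure D4:**
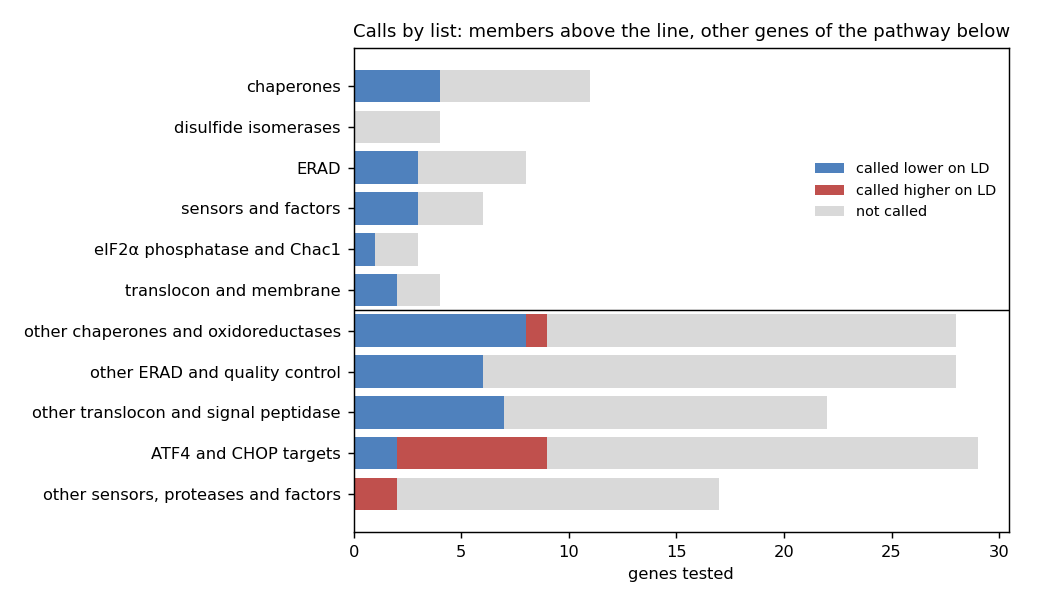
Number of genes tested (x axis) in each list of members (above the line) and of other pathway genes (below it), split by the edgeR test into called lower on LD (blue), called higher on LD (red) and not called (grey). Red appears only in the lower lists, mainly among ATF4 and CHOP targets with 7 of 29.

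H3K27ac marks active promoters and enhancers, and the peak lists show whether the members' promoters carried it and how wide it was. A transcription start site (TSS) was taken for each gene from the mm9 annotation as the start shared by most of its protein-coding transcripts. An H3K27ac interval overlapped the TSS ± 1 kb in all 6 livers for 34 of the 36 members (94.4%), beside 10218 of 12019 annotated protein-coding genes tested in the RNA table (85%). Derl3 had one in 3 of the 6 livers and Creb3l3 in none. At Creb3l3 (mm9 chr10, TSS 80561619, minus strand) the nearest interval began 1819, 2819 and 2619 bp downstream of the annotated start in the LD livers and 2219, 2619 and 3219 bp downstream in the CD livers. In all 6 it spanned at least 6200 bp. RefSeq lists 2 promoters for Creb3l3, 6281 bp apart on GRCm38.p6.

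The share of TSS ± 2 kb inside an interval is a width and not a height, since the lists hold no read counts. Over the members its median was 85.8%, 87.5% and 79.7% in LD replicates 1 to 3 and 82.6%, 85% and 87% in CD replicates 1 to 3, and the groups overlapped. Over all 12019 genes the medians were 64.6%, 65% and 64.7% on LD against 60%, 60.9% and 60% on CD. The intervals as a whole covered 149.8 to 160.4 Mb in the LD livers and 139.7 to 145.4 Mb in the CD livers. In 3 members all LD livers lay above all CD livers: Creld2 (66.9%, 65% and 60% on LD, 40%, 55% and 50% on CD), Derl1 (85.7%, 95.7% and 95.7% against 75.7%, 80.7% and 80.7%) and Calr (99.2%, 94.2% and 94.2% against 89.2%, 89.2% and 89.2%). None had all LD livers below. The same separation was found in 7.34% of all genes for LD above and in 1.86% for LD below, so that 3 of 36 (8.33%) is close to the background. With 3 livers against 3 the smallest two-sided p of an exact permutation test is 0.1, which these 3 genes reach, and no p under 0.05 was possible. Without LD replicate 1, 4 members lay below, and without LD replicate 3, 5 lay above. Separation is easier for any gene when 2 livers are set against 3. The share over all genes was not taken for these settings, so the member counts cannot be read against a background.

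Of the 13 genes that fell on LD, only Creld2 had separated cover, and its cover was wider on LD. Ern1, Atf4 and Ppp1r15b were fully covered in all 6 livers, so that this measure could not show a difference in them. The interval at the TSS of Ern1 spanned 17400, 11200 and 10400 bp in the LD livers and 18200, 18000 and 18600 bp in the CD livers. At Xbp1 the spans were 8200, 8800 and 8600 bp and 9400, 9800 and 9200 bp, and at Hspa5 5200, 5400 and 4400 bp and 6400, 7600 and 6200 bp. These 3 and Derl2 were the members whose interval was shorter in every LD liver than in every CD liver, and none was longer. These counts, 4 (11.1%) and 0 of 36, were read after seeing the values and stand beside 3.3% of all 12019 genes with LD intervals shorter and 7.99% with LD intervals longer. For the other members the lengths overlapped, as at Hyou1 with 6800, 3600 and 5000 bp and 4400, 3800 and 4400 bp.

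C/EBPα and Hnf4α are transcription factors that define the hepatocyte, and their peaks were read within TSS ± 1 kb, with the height given as the tag count that HOMER scales to a library of fixed size. C/EBPα had a peak in all 4 samples at 13 of the 36 members (36.1%), beside 1961 of 12019 genes (16.3%), and in at least 1 sample at 23 (63.9%, beside 50.2%). Hnf4α had one in all 4 samples at 8 members (22.2%, beside 22.5%) and in at least 1 at 23 (63.9%, beside 61.0%). Both factors were present in all samples at 5 members, namely Hsp90b1, Dnajb11, Canx, Herpud1 and Atf6. The highest C/EBPα peaks were at Chac1, with heights of 133 and 122 on LD and 239.5 and 222 on CD, and at Herpud1, with 129 and 126 and 225 and 165. In LD replicate 1 the centre of the peak was 201 bp before the mm9 start of Chac1 and 130 bp before that of Herpud1, and the CARE matches of these 2 genes lie 194 to 186 and 113 to 105 bases before the RefSeq starts, which were taken from another build.

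Of the 13 members with C/EBPα in all 4 samples, 12 had both LD heights below both CD heights and 1, Eif2ak3, had both above (8.5 and 14 on LD, 8 and 8 on CD). Ppp1r15b, for instance, had 73.5 and 57 on LD and 156 and 84.5 on CD, and Hyou1 had 16.5 and 14.5 and 34.5 and 29. The same order was found at 62.5% of the 1961 genes with a peak in all 4 samples. The median log2 ratio of LD to CD was -0.59 in the members and -0.64 in all of them, so that lower heights on LD were common at these gene starts. Over all C/EBPα peaks the median heights were 11.5 and 12.5 on LD and 13 and 8.5 on CD. The paper reports more differential C/EBPα sites enriched on LD than on CD. Of the 8 members with Hnf4α in all 4 samples, none had both LD heights below both CD heights, beside 5.63% of the 2702 such genes. That count rests on CD replicate 1, since without it both LD heights lay below the remaining CD height at 8 of the 11 members with a peak in the other 3 samples, beside 69.7% of the 3117 such genes. Heights are scaled to library size but not to the yield of the precipitation, and with 2 samples per diet no test was made.

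**Figure D5:**
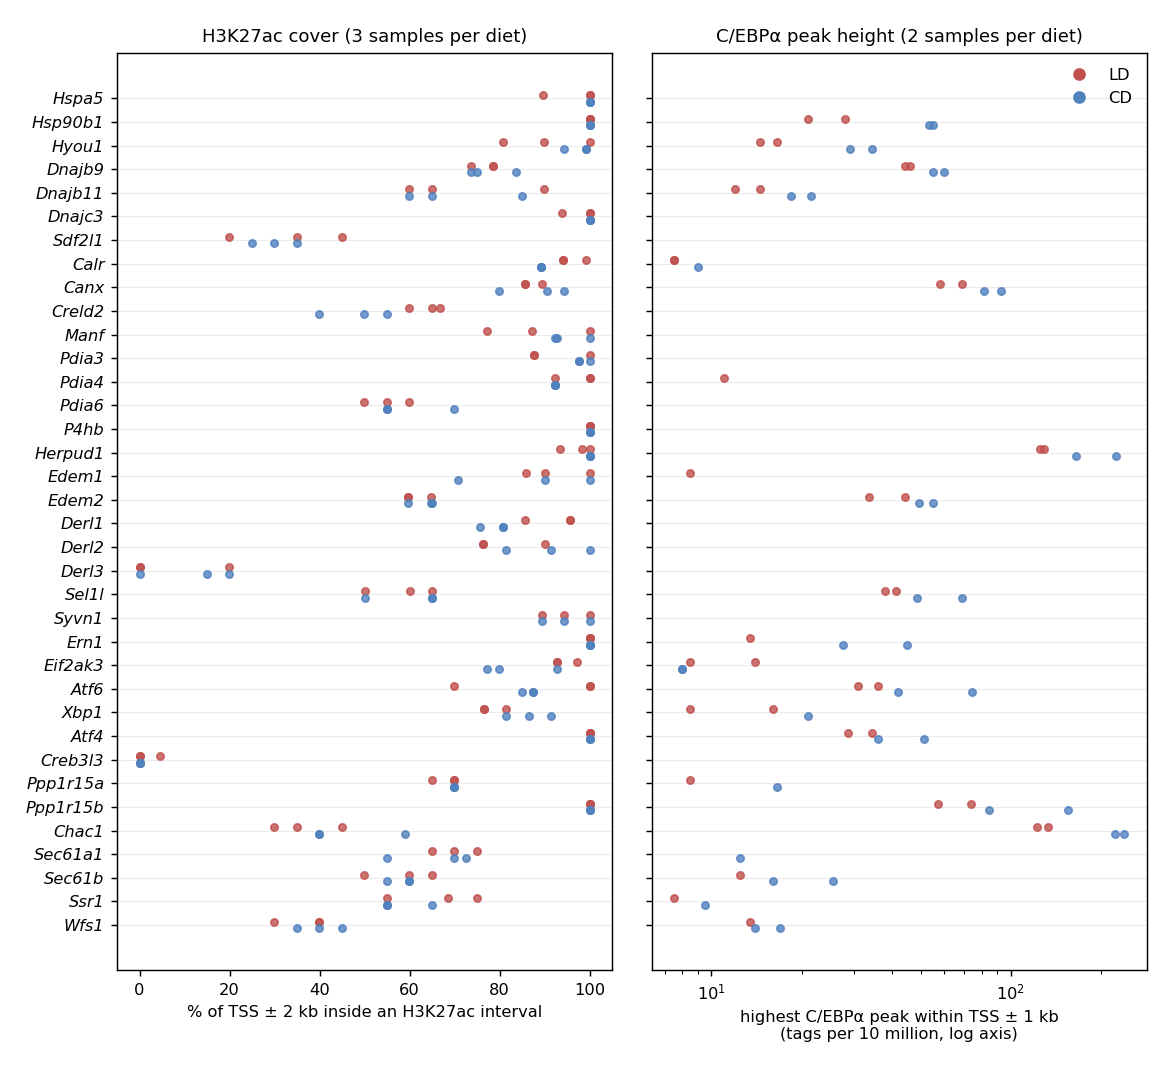
Left, share of TSS ± 2 kb inside an H3K27ac interval (%, x axis, 3 livers per diet); right, height of the highest C/EBPα peak within TSS ± 1 kb (scaled tags, log axis, 2 samples per diet), for each member, with LD in red and CD in blue. Cover overlaps between diets in 33 of 36 members, while 12 of the 13 members with 4 heights have the LD points left of the CD points.

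Promoter contacts were read from the lists of interactions within 1 Mb with a CHiCAGO score of at least 5, called on replicates pooled by diet, so that they carry no replicate error. Contacts were listed for 31 members on LD and 30 on CD, 322 in all on LD and 342 on CD, with a median of 4 and 4.5 per member. Of the members' contacts, 235 were on both lists, 73.0% of those on LD and 68.7% of those on CD, and over all promoters the shares were 69.6% and 70.3%. No fragment on either list named Hyou1, Sdf2l1, Chac1 or Wfs1. Since the bait fragments were read from these lists, a promoter without a contact cannot be told apart from one that was not captured. Creld2 had the most, 82 on LD and 77 on CD with 63 shared, but its fragment also holds the promoter of Alg12, and the contacts cannot be assigned to 1 of the 2 genes. More contacts were listed on LD for 12 members and on CD for 13, and the others had equal numbers. Edem1, alone on its fragment, had 24 contacts on LD and 43 on CD with 17 shared, Sel1l had 12 and 20 with 8 shared, and P4hb 4 and 11 with 4 shared. The other way, Atf6 had 11 on LD and 7 on CD, Manf 32 and 27, Atf4 13 and 9, and Ppp1r15a 16 and 12. At a score of at least 10, however, Atf6 had 0 on LD and 3 on CD, with highest scores of 9.16 and 19.3. The fragments of Manf, Atf4 and Ppp1r15a also hold the promoters of Rbm15b, Rps19bp1 and Plekha4. Xbp1 had 4 on LD and 0 on CD, and Sec61b 3 and 0, with highest scores of 5.86 and 6.01, close to the threshold of 5. No contact joined the promoters of 2 members.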

How the data were processed

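Deposited files of 10 RNA-seq, 6 H3K27ac, 4 Hnf4α and 4 C/EBPα libraries and of PCHi-C from mouse liver were used, on mm9. The authors aligned RNA reads with STAR 2.5 and made the counts per gene with featureCounts 1.5.0-p1. They also deposited TPM values, in a table that holds their own comparison (fold changes and p-values), which was not used. The submitters' processing notes also name Bowtie 0.12.8 and Picard 1.110, without giving their role. The authors called H3K27ac intervals with SICER, deposited as positions without a signal value, and factor peaks with HOMER, whose deposited signal is the height in tags scaled to a fixed library size. The deposited PCHi-C score is that of CHiCAGO on pooled replicates.

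Counts were tested here with edgeR 4.0.16 in R 4.3.3 (TMM scaling, its default filter on low counts, robust quasi-likelihood test, no covariate). The standard error of a log2 fold change was approximated as its absolute value divided by the square root of the F statistic. On simulated counts for 13434 genes of this comparison, 72 of 100 genes changed 1.5-fold and 100 of 100 changed 2-fold were recovered, with 16 false calls. Alternatives were DESeq2 1.42.0, RLE size factors, no count filter or at least 10 counts in every sample, limma 3.58.1 on log2(TPM + 1) and log2(TPM + 0.1), a test against a fold change of 1.2, the replicate number as a block, leaving out each mouse, and other windows and thresholds for peaks and contacts. Every member is named, and of the other pathway genes Ddit3, Atf3, Trib3, Asns, Fgf21, Ero1l and Os9 and up to 3 called genes per list with the smallest adjusted p. The members and lists were chosen with earlier results of these data known. Start sites on mm9 are the position shared by most annotated transcripts of a gene. Topological domains and protein sequences were not analysed here. Depth limits low genes, and the pooled contacts carry no replicate error.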

Additional observations from a re-analysis of the deposited data

Results flagged for a closer look

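Among 126 groups of 5 values looked at for a mouse apart from the others, 5 stood out by Dixon's criterion and none was a member's. Chance alone flags about 1 in 20 groups. Ero1lb was at 43.3 CPM in LD replicate 2 and at 54.0 to 57.2 CPM in the other LD mice. Atf3 was at 3.82 CPM in LD replicate 1 and at 7.80 to 8.76 CPM in the others. The summed neutrophil markers reached 74.8 CPM in LD replicate 2 against 3.97 to 5.46 CPM in the other LD mice, with S100a8, S100a9 and Camp as the genes that stood apart. The summed cholangiocyte markers were at 32.1 CPM in CD replicate 2 and at 18.8 to 20 CPM in the other CD mice. The summed pancreatic markers, nearly all of them Cela1, were at 25.5 CPM in LD replicate 1 and at 13.5 to 16.0 CPM in the other LD mice.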

How the results depend on the processing

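No called member changed sign in 234 values over 18 alternatives, and 32 lost the call. The members called lower numbered 13, against 14 in DESeq2, 8 and 9 by limma on log2(TPM + 1) and log2(TPM + 0.1), 2 (Manf and Ern1) against a fold change of 1.2, and 11 to 14 when 1 mouse was left out. The members called higher numbered 0, against 1 in DESeq2, 1 and 1 on TPM, and 0 to 1 without 1 mouse. By limma on TPM, where input and test change together, the median of all genes was 0.06 and 0.07, and the members' median -0.105 and -0.107, or -0.16 and -0.18 relative to all genes. The share of all calls that were higher was 55.4% in edgeR (1859 higher, 1498 lower), 75.0% on log2(TPM + 1) (2220 and 740) and 74.9% on log2(TPM + 0.1) (2337 and 782). Other pathway genes called higher went from 10 to 17 and 19 on TPM, and those called lower from 22 to 7 and 7, and to 4 against a fold change of 1.2. By role, ERAD calls went from 3 to 1 and 1 on TPM, and translocon calls from 2 to 0 and 1, with 1 to 2 without 1 mouse. Against a fold change of 1.2, 1 chaperone, 0 ERAD, 1 sensor, 0 eIF2α and 0 translocon genes were called.

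Members and Os9 that were not called and took the other sign on log2(TPM + 1) and log2(TPM + 0.1) were Dnajb9 (0.0687 and 0.071), Calr (0.024 and 0.0241), Canx (0.0664 and 0.0667), Pdia6 (0.0484 and 0.0487), Derl1 (0.00857 and 0.00864), Ssr1 (0.0166 and 0.0173) and Os9 (0.0163 and 0.0165). Without 1 mouse, sign changes lay between 4.86e-05 and 0.1 for Dnajb9, -0.0672 and -0.00825 for Herpud1, 0.000246 and 0.0116 for Canx, 0.0139 and 0.038 for Pdia6, and at 0.000655 for Calr and -0.00683 for Derl3. Over all 10 such fits the log2 fold changes ranged over -0.086 to 0.1 for Dnajb9, -0.0672 to 0.0913 for Herpud1, -0.163 to 0.000655 for Calr, -0.0434 to 0.0116 for Canx, -0.139 to 0.038 for Pdia6 and -0.00683 to 0.677 for Derl3.

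Replicate numbers do not pair the mice, since deviations of same-numbered mice correlated at -0.13 to 0.227. With the replicate block, 1818 genes were higher and 1355 lower, 1 member was called higher (Eif2ak3), and Herpud1 was at -0.0025.

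H3K27ac cover lay above in 3 members, against 0 at TSS ± 1 kb, 5 at ± 5 kb and 3 to 5 without 1 liver, and below in 0, against 2 at ± 5 kb and 0 to 4 without 1 liver. Hnf4α in all samples went from 8 to 18 at ± 5 kb and 5 with only the higher peaks (those above each sample's median height), and C/EBPα from 13 to 24 at ± 5 kb. In alternatives chosen after seeing the data, lower heights on LD went from 0 to 1 at ± 5 kb and 0 to 8 without 1 sample for Hnf4α, and from 12 to 19 and 12 to 14 for C/EBPα. At a score of at least 10, members had 43 contacts on LD and 50 on CD. The cause of these shifts was not tested.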
